A study of Mus musculus with 3 samples.

Results

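The genes described here make the peptides that MHC class I molecules show on the cell surface. They are the immunoproteasome subunits *Psmb8*, *Psmb9* and *Psmb10*, the constitutive subunits *Psmb5* and *Psmb6*, the peptide transporter *Tap1* and *Tap2*, the loading factor *Tapbp*, the trimming enzyme *Erap1* and the class I transactivator *Nlrc5*. They were chosen by symbol, and all 10 were found among the 54838 genes of the spatial data. *Psmb7*, the constitutive partner of *Psmb10*, was added to complete the pairs of subunits and is not counted among the 10. The data are spatial transcriptomes of 3 thymus sections of female C57BL/6 mice, each mouse giving 1 section. Section KO1308 is from a *Trp53*-/- mouse (KO) of 21 weeks, section KO1134 from a *Trp53*-/- mouse of 17 weeks, and section WT1101 from a *Trp53*+/+ mouse (WT) of 17 weeks. These ages are those of the labels. A sheet of the study gives another age for the WT mouse and leaves out mouse KO1134. The labels give the deletion for the whole mouse and not for a cell type, and both KO sections are set beside the same WT section. All mice were perfused with cold PBS under pentobarbital, and the frozen sections were permeabilised for 27 min (KO) or 25 min (WT), so that this time and the genotype cannot be told apart.

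Spots on the slide lay 4.8 µm apart, and each transcript was counted once by its unique molecular identifier (UMI). The spots were gathered into squares 27 µm wide (bins), and those over tissue that held 300 genes or more were kept, 16140 in KO1308, 12009 in KO1134 and 27104 in WT1101. A bin can hold several cells. The mean UMI count per bin was 1090 in KO1308, 2591 in KO1134 and 1497 in WT1101. Between 5486 and 13503 spot barcode sequences were shared by a pair of sections, at most 1.75% of those of either section. Levels are UMIs of a gene per 1000000 UMIs of the same area (CPM), and brackets hold exact 95% Poisson intervals for a level or exact 95% conditional binomial intervals for a ratio. These intervals cover counting error only. With 1 WT section there is no test between genotypes, and the distance between the KO sections is the only view of the spread between mice. A gene was called higher or lower when both KO sections were at least 1.5-fold from WT in the same direction, among genes with at least 100 UMIs in a section. *Trp53* itself was at 22.5 CPM in KO1308, 17.4 CPM in KO1134 and 80.0 CPM in WT1101 in thymic T bins, which is 0.281 and 0.218 of the WT level.

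No member was used to draw the areas. A bin belongs to the thymus area where 5 genes of thymocytes and cortical epithelium (*Prss16*, *Cd8b1*, *Ptcra*, *Arpp21* and *Themis*) reach, in a window of 7 × 7 bins around it, 50% or more of their share of the whole section. That share was 1296 CPM in KO1308, 524 CPM in KO1134 and 1969 CPM in WT1101. The limit is thus lowest in KO1134 and highest in WT1101, so the areas of the sections are drawn by unlike limits. Thymic T bins are bins of that area in which any CD3 gene exceeded 2 as ln(1 + UMIs per 10000), and there were 5703 in KO1308, 2837 in KO1134 and 15875 in WT1101. They include bins of the lymph-node-like area described below, without which 5702 remained in KO1308, 2290 in KO1134 and 15875 in WT1101. In shallow bins 1 CD3 UMI meets the CD3 limit and in deep bins it does not. The median UMI count per tissue bin was 876 in KO1308, 2643 in KO1134 and 1357 in WT1101. The CD3 limit thus asked for more UMIs in most bins of KO1134. Cortex and medulla are thymus bins in which 1 of 2 lists of 7 markers led the other by 1.5-fold. Medulla markers (*Krt5*, *Aire* and others) summed to 1645 CPM in the medulla and 308 CPM in the cortex of KO1308, to 1698 and 177 CPM in KO1134, and to 676 and 90.2 CPM in WT1101. The cortex markers differed less, at 3690 CPM in the cortex and 2240 CPM in the medulla of KO1308, 2926 and 1733 CPM in KO1134, and 4110 and 3218 CPM in WT1101, so the medulla bins also hold cortical transcripts. In bins of mixed cells, fewer cells of a type and less RNA per cell cannot be told apart.

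The proteasome is a barrel that cuts proteins into peptides, and its cutting is done by 3 subunits. In cells exposed to interferon and in many immune cells the constitutive subunits are replaced by the immunoproteasome subunits, *Psmb8* for *Psmb5*, *Psmb9* for *Psmb6* and *Psmb10* for *Psmb7*, which changes the peptides that are cut. In the thymus, cortical epithelial cells use a further subunit, *Psmb11*, in the place of *Psmb5*. *Tap1* and *Tap2* pair to carry peptides from the cytosol into the endoplasmic reticulum, *Erap1* trims them there, and *Tapbp* (tapasin) bridges the transporter and the empty class I molecule. *Nlrc5* is a transactivator of class I genes, and *Psmb9*, *Tap1* and *B2m* are among its known targets. Thymocytes are selected on these peptides, first in the cortex and then in the medulla.

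Of the 10 genes, 5 lie in the MHC region of chromosome 17 (GRCm38). *Psmb9* (chr17:34181987-34187764, minus strand) and *Tap1* (chr17:34187553-34197225, plus strand) are head to head and their annotated spans share 212 bases. *Psmb8* (chr17:34197721-34201454, plus strand) begins 495 bases after *Tap1* ends, *Tap2* (chr17:34203527-34216321, plus strand) begins 2072 bases after *Psmb8* ends, and *Tapbp* is at chr17:33915899-33929292 (plus strand). The others are at chr8:105935735-105938444 (*Psmb10*, minus strand), chr14:54614119-54618022 (*Psmb5*, minus strand), chr11:70525367-70527858 (*Psmb6*, plus strand), chr13:74639568-74693201 (*Erap1*, plus strand) and chr8:94434356-94527272 (*Nlrc5*, plus strand). Whether the counting used strand is not given in the sources used here. Exons of *Tapbp* share 904 bases with those of *Gm19412* on the opposite strand, exons of *Erap1* share 834 bases with *Cast*, exons of *Tap2* share 533 bases with *Gm15821*, and exons of *Psmb8* share 498 bases with *Gm20496*, so these counts are uncertain to that extent.

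The sequences before RefSeq's gene starts are shown because the subunits of a pair differ in how interferon acts on them. These starts can lie inside the GENCODE spans given above. For *Psmb8*, *Psmb9*, *Tap1*, *Tapbp* and *Erap1* all 250 bases of the window lie in an exon of a GENCODE transcript (for *Tap1*, of the neighbour *Psmb9*), so the sequence is upstream of the RefSeq start only. In RefSeq's table for GRCm38.p6, 8 of the 10 genes had an entry, and the 250 bases before each start were searched on both strands for GAAA and GAAA with 2 bases of any kind between them (the interferon-stimulated response element, ISRE), TTC and GAA with 3 bases between them (the STAT element GAS), and GGG and CC with 5 bases between them (the NF-kB element). The ISRE letters were in none of the 8, against 2.98% of 32851 promoters of that length. The GAS letters were in *Psmb8* alone, against 7.02% of promoters, and the NF-kB letters were in *Psmb9*, *Tap1* and *Psmb6*, against 45.8%. By RefSeq's starts, 225 bases lie between *Psmb9* and *Tap1*, whereas the longer GENCODE spans overlap by the 212 bases given above. The windows share these 225 bases, and the 5 matches of *Tap1* are those of *Psmb9* read on the other strand. A match is a stretch of letters and not a shown site. The stretches below are written 5′ to 3′ on the strand of the gene, with the letters of matches in capitals. Of the 5 *Psmb9* matches 3 are shown: 2 that overlap, in a stretch whose first capital is the end of a match further upstream, and the 1 nearest the start. The stretches are for *Psmb8* chr17:34198087-34198116 (plus), for *Psmb9* chr17:34187470-34187499 and chr17:34187366-34187395 (minus), for *Psmb10* chr8:105938445-105938642 (minus), for *Psmb5* chr14:54618023-54618245 (minus) and for *Psmb6* chr11:70525107-70525356 (plus).
Psmb8, GAS letters: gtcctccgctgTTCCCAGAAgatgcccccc
Psmb9, overlapping matches: CcagattgaGGGCAGGACCCtctgtcgtca
Psmb9, nearest match: cgcgatgatgGGGCGGGGCCtcagtctgca
Psmb10, no match: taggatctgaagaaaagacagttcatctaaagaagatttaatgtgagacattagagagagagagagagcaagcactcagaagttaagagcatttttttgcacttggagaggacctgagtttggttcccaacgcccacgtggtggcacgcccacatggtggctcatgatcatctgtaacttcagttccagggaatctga
Psmb5, no match: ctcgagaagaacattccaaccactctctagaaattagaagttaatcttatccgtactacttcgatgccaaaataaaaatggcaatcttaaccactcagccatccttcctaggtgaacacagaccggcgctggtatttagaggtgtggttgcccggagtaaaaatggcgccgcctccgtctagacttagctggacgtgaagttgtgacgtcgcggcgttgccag
Psmb6, one match: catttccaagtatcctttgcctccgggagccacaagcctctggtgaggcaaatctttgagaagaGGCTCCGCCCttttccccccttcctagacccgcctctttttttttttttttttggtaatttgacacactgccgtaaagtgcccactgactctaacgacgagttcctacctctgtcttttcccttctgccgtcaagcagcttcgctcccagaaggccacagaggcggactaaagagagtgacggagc

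**Figure D1:**
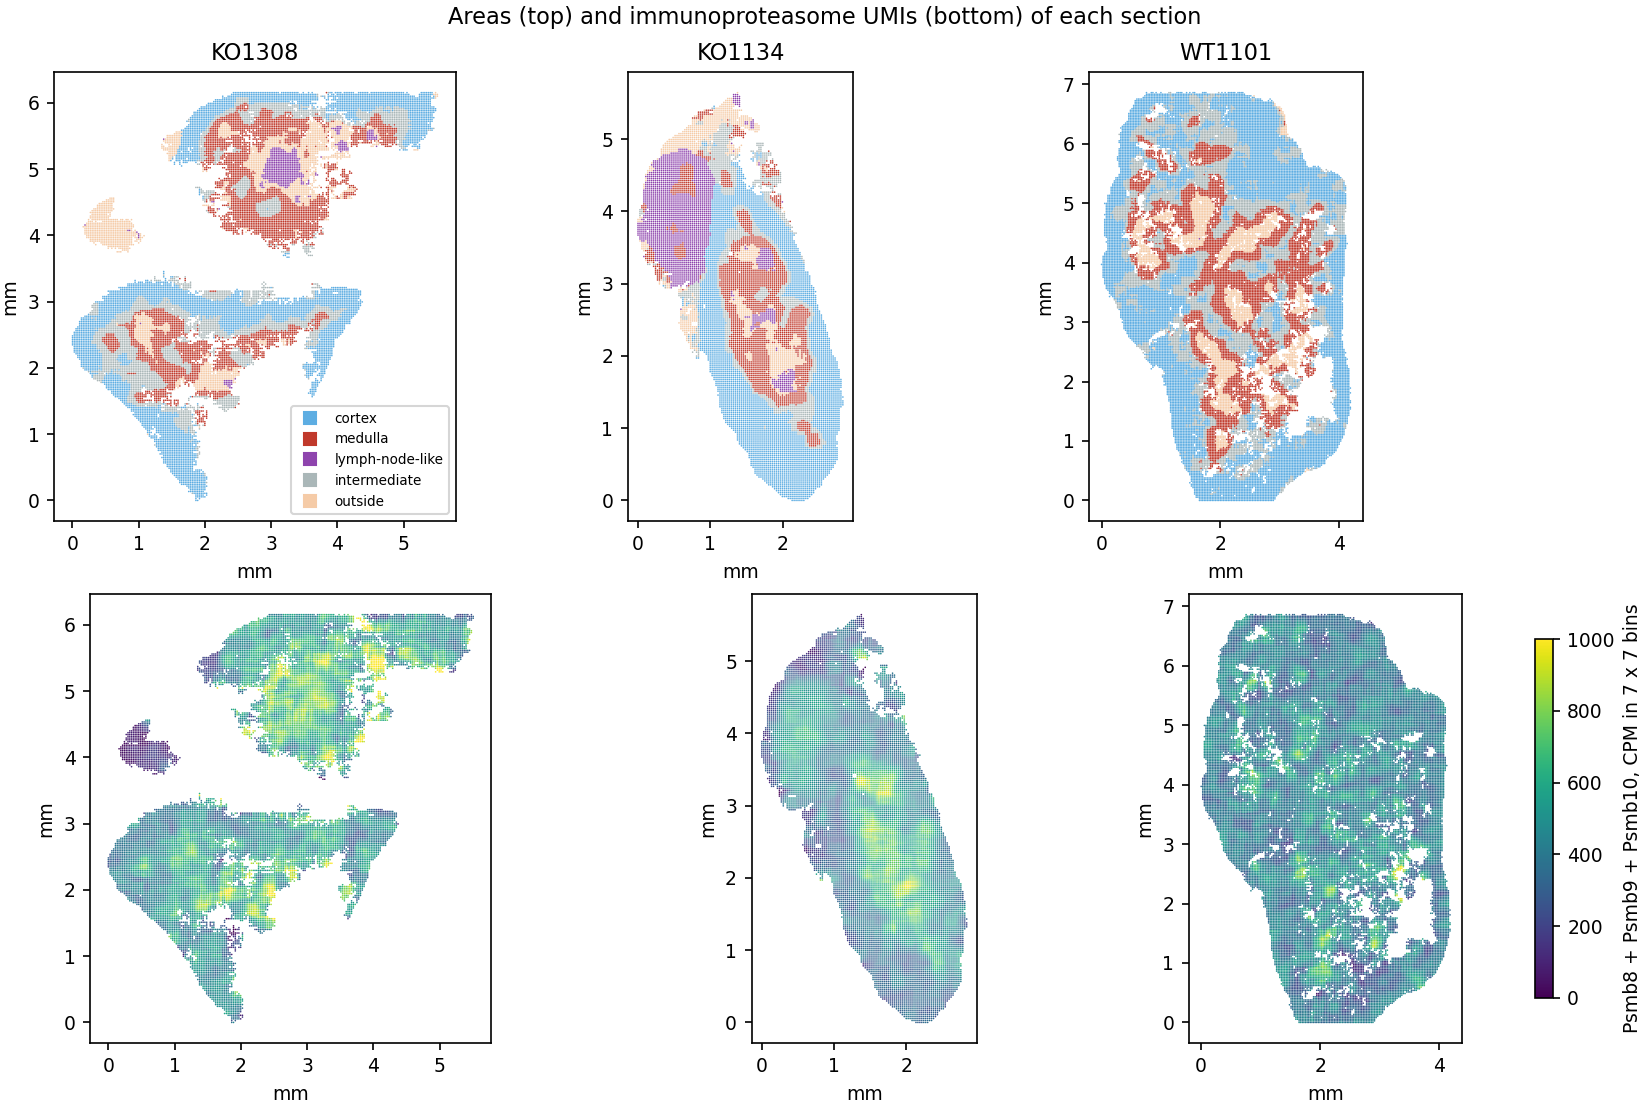
Maps of the sections KO1308, KO1134 and WT1101, axes in mm, with the area of each bin above and the summed *Psmb8*, *Psmb9* and *Psmb10* level in CPM over the surrounding 7 × 7 bins below, colours ending at 1000 CPM. Bins of the highest levels lie mostly away from the cortex, and the sums over areas were 631 CPM in the medulla and 474 CPM in the cortex of KO1308, 604 and 373 CPM in KO1134, and 445 and 404 CPM in WT1101.

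In thymic T bins the 3 immunoproteasome subunits did not move together. *Psmb8*, which replaces the chymotrypsin-like subunit, was at 189 CPM (178 to 200) in KO1308, 186 CPM (176 to 196) in KO1134 and 199 CPM (194 to 205) in WT1101. The 3 sections are close, with ratios to WT of 0.949 (0.890 to 1.01) and 0.935 (0.881 to 0.993). *Psmb9*, which replaces the caspase-like subunit, reached 229 CPM (218 to 242) in KO1308 and 181 CPM (171 to 191) in KO1134, against 142 CPM (138 to 147) in WT1101. Both KO sections lay above WT, by 1.61-fold (1.52 to 1.72) in KO1308 and 1.27-fold (1.19 to 1.35) in KO1134, so the second did not reach the 1.5-fold limit. *Psmb10*, which replaces the trypsin-like subunit, was at 121 CPM (113 to 130) in KO1308, 106 CPM (98.5 to 113) in KO1134 and 71.5 CPM (68.2 to 74.8) in WT1101, 1.70-fold (1.56 to 1.85) and 1.48-fold (1.36 to 1.61) the WT level. Summed, the 3 subunits were 1.31-fold (1.26 to 1.36) the WT level in KO1308 and 1.15-fold (1.10 to 1.19) in KO1134, and none of the 3 was called.

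The constitutive subunits were lower than WT or near it. *Psmb5*, the chymotrypsin-like subunit, was at 113 CPM (105 to 122) in KO1308, 187 CPM (178 to 197) in KO1134 and 188 CPM (183 to 193) in WT1101. Only KO1308 stood apart, with a ratio of 0.604 (0.558 to 0.654) against 0.997 (0.939 to 1.06) in KO1134. *Psmb6*, the caspase-like subunit, was at 162 CPM (152 to 172), 139 CPM (130 to 147) and 202 CPM (197 to 208), and here both KO sections were below WT, at ratios of 0.799 (0.746 to 0.855) and 0.685 (0.640 to 0.733). *Psmb7*, the trypsin-like subunit, had ratios of 0.615 in KO1308 and 0.820 in KO1134. The sum of the 3 constitutive subunits was 338 CPM (324 to 352) in KO1308, 409 CPM (395 to 424) in KO1134 and 492 CPM (483 to 501) in WT1101, or 0.687 (0.655 to 0.719) and 0.832 (0.800 to 0.866) of WT.

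**Figure D2:**
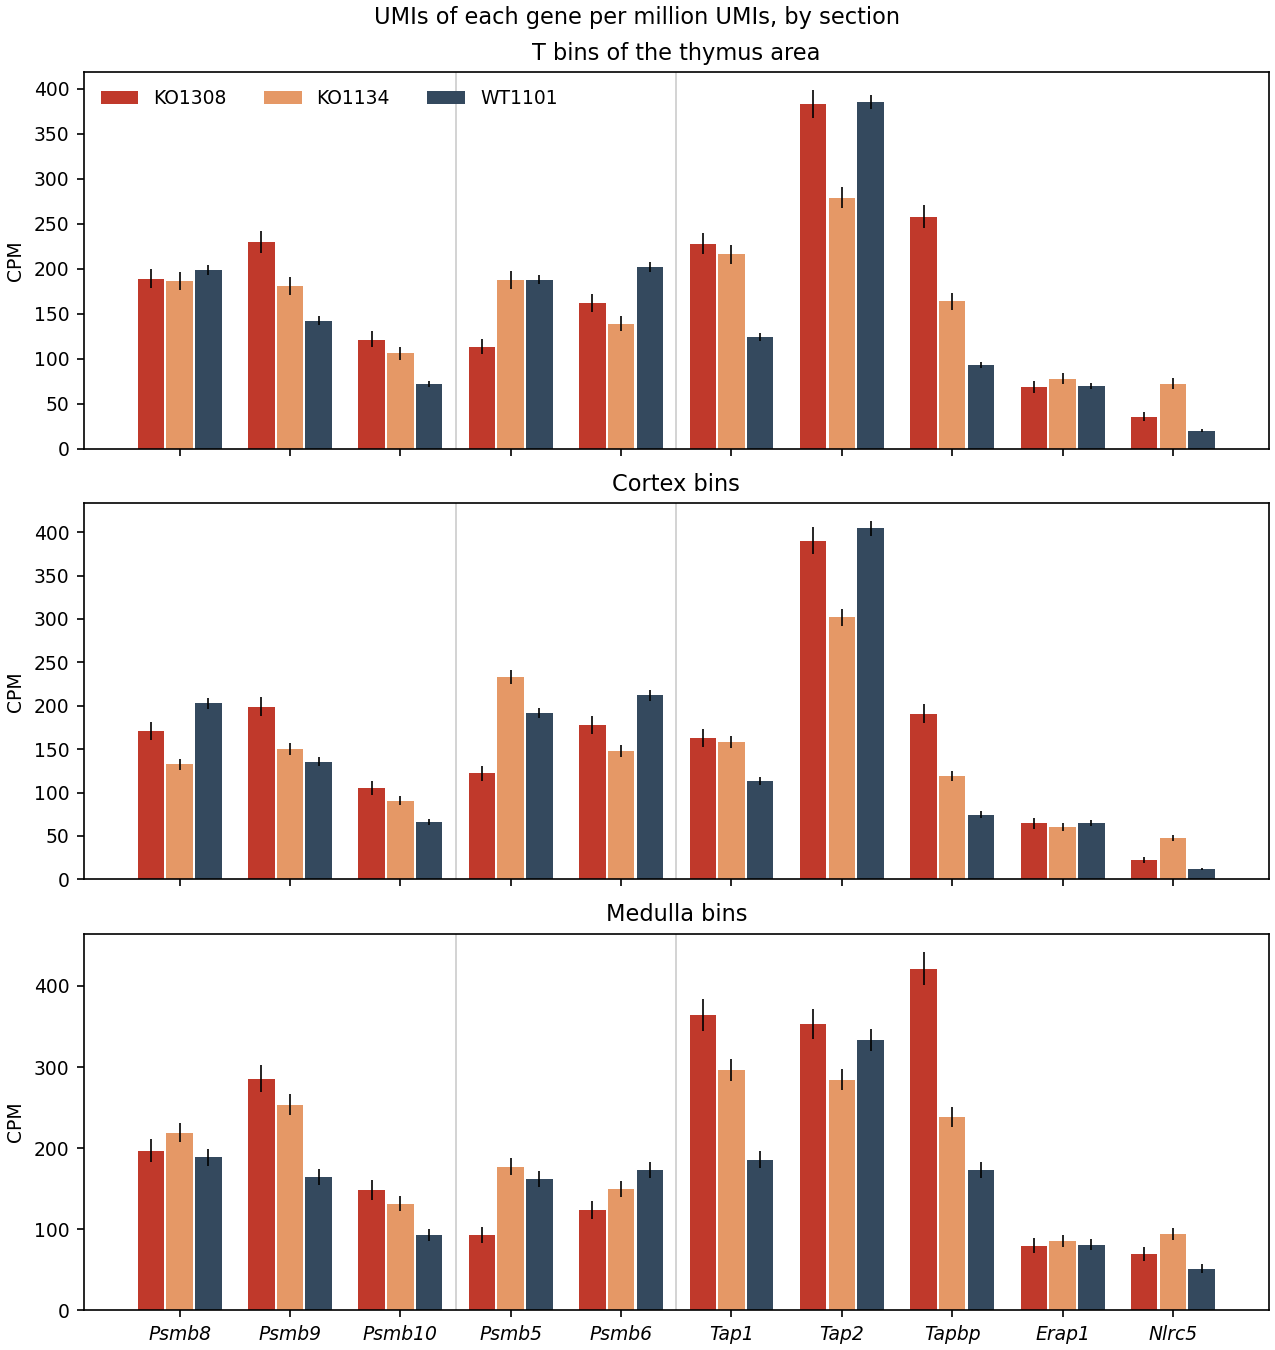
Levels in CPM of each member in thymic T bins, cortex and medulla (panels from the top), as bars for the sections KO1308, KO1134 and WT1101 with exact 95% Poisson intervals (counting error only). In thymic T bins *Tap1* and *Tapbp* are higher in both KO sections than in WT1101 (228, 216 and 124 CPM for *Tap1*), while *Psmb8* lies between 186 and 199 CPM.

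The UMIs of each immunoproteasome subunit per UMI of its constitutive partner compare sections and areas free of the total, although transcripts of different genes are captured unequally and the value 1 has no meaning of its own. In thymic T bins, *Psmb9* per *Psmb6* was 1.42 (1.31 to 1.54) in KO1308, 1.30 (1.20 to 1.41) in KO1134 and 0.703 (0.674 to 0.734) in WT1101. *Psmb10* per *Psmb7* was 1.94 (1.71 to 2.19), 1.27 (1.14 to 1.41) and 0.702 (0.661 to 0.746). Both KO sections were above WT for these pairs, by 1.81-fold to 2.76-fold. *Psmb8* per *Psmb5* was 1.66 (1.52 to 1.83) in KO1308, 0.994 (0.921 to 1.07) in KO1134 and 1.06 (1.02 to 1.10) in WT1101, so for this pair the KO sections parted. The sums gave 1.60 (1.51 to 1.69), 1.15 (1.10 to 1.21) and 0.839 (0.817 to 0.861), 1.90-fold and 1.38-fold the WT value.

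The pairs also differed between cortex and medulla within each section. The summed ratio was 1.30 in the cortex and 2.23 in the medulla of KO1308, 0.763 and 1.49 in KO1134, and 0.784 and 1.07 in WT1101. It was thus higher in the medulla in 3 of 3 sections, by 1.72-fold, 1.95-fold and 1.37-fold. In the cortex KO1134 did not stand above WT in the sum, and its *Psmb8* per *Psmb5* was 0.568 (0.535 to 0.604) against 1.06 (1.01 to 1.10) in WT1101 and 1.40 (1.28 to 1.54) in KO1308. In tissue outside the thymus area the summed ratio was 1.82 (1.67 to 1.99) in KO1308, 1.60 (1.46 to 1.74) in KO1134 and 1.60 (1.46 to 1.75) in WT1101, the most alike of the 4 areas. These bins are of unlike tissue, since they hold medulla in each section and much fat in the KO sections only, as given below.

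**Figure D3:**
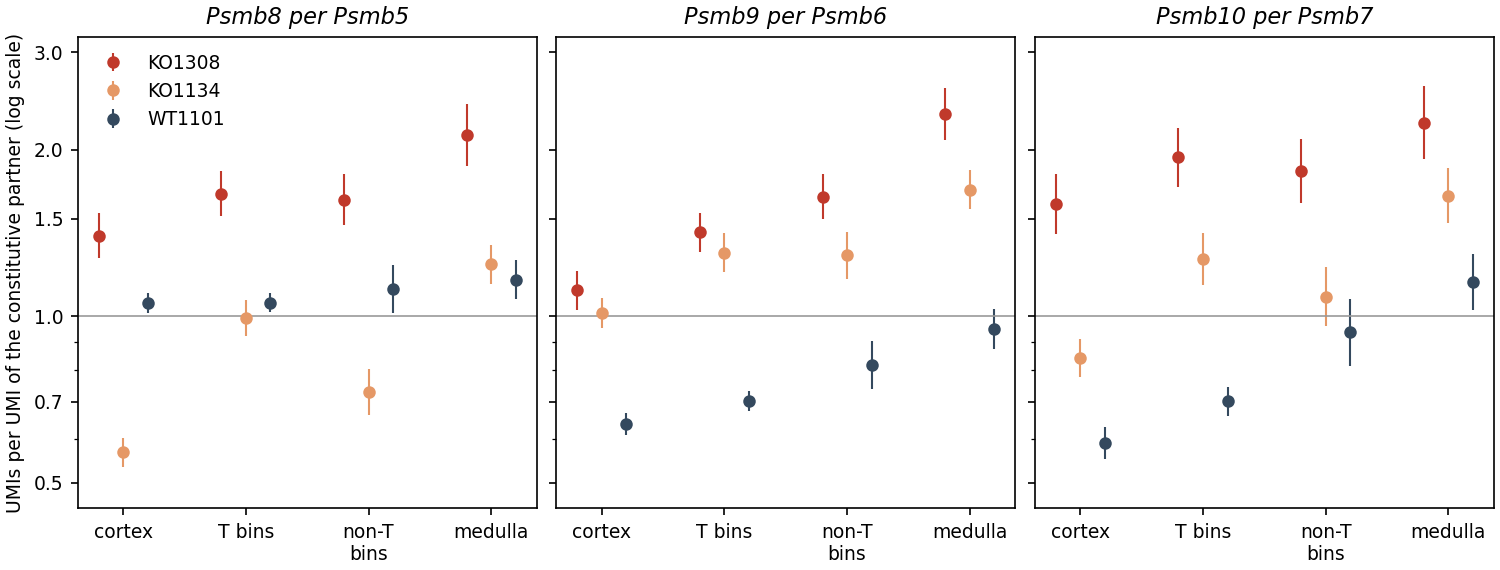
UMIs of each immunoproteasome subunit per UMI of its constitutive partner (log axis) in the cortex, thymic T bins, thymic non-T bins and medulla of the 3 sections, as points with exact 95% intervals (counting error only). *Psmb9* per *Psmb6* lies above WT1101 in both KO sections in all 4, whereas *Psmb8* per *Psmb5* of KO1134 lies below WT1101 in the cortex (0.568 against 1.06).

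The transporter subunits differed from each other. *Tap1* was at 228 CPM (216 to 240) in KO1308, 216 CPM (205 to 227) in KO1134 and 124 CPM (120 to 129) in WT1101 in thymic T bins. Both KO sections were higher than WT, by 1.83-fold (1.72 to 1.95) and 1.73-fold (1.63 to 1.84), and *Tap1* was called higher. In the few thymic T bins with no UMI of markers of other cells (93 in KO1308, 14 in KO1134 and 2444 in WT1101) its ratios were 1.10 and 0.656, so the call was not met there. These bins held only 69546 UMIs in KO1308 and 21217 in KO1134, so the ratios rest on few *Tap1* UMIs and are uncertain. *Tap2*, its partner in the transporter, was at 383 CPM (368 to 399), 279 CPM (267 to 291) and 385 CPM (378 to 393). KO1308 was level with WT (0.995, 0.951 to 1.04) and KO1134 was below it (0.724, 0.690 to 0.760).

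*Tapbp*, which holds the class I molecule at the transporter, was at 258 CPM (245 to 270) in KO1308, 164 CPM (155 to 173) in KO1134 and 92.8 CPM (89.1 to 96.6) in WT1101. It was called higher, at 2.78-fold (2.61 to 2.96) and 1.76-fold (1.65 to 1.89) the WT level. *Erap1*, the trimming enzyme, was at 68.4 CPM (62.1 to 75.2), 77.5 CPM (71.3 to 84.1) and 69.3 CPM (66.1 to 72.6), a range in which the KO1308 interval contains the WT value. The sum of *Tap1*, *Tap2*, *Tapbp* and *Erap1* was 1.39-fold (1.35 to 1.44) the WT level in KO1308 and 1.10-fold (1.06 to 1.13) in KO1134. The immunoproteasome sum was 1.31-fold and 1.15-fold, so the order of the sums differs between the KO sections.

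*Nlrc5* was at 35.4 CPM (30.9 to 40.4) in KO1308, 71.8 CPM (65.8 to 78.2) in KO1134 and 20.0 CPM (18.3 to 21.9) in WT1101. It was called higher, at 1.76-fold (1.501 to 2.07) and 3.58-fold (3.17 to 4.05) the WT level. Its order between the KO sections was the reverse of that of *Psmb9* and *Tapbp*, which were higher in KO1308. *Psmb10* and *Tap1* were also higher in KO1308 in CPM, but the intervals of the KO sections meet. The order of *Tap1* flips with the scaling given below.

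In thymic T bins 3 of the 10 genes were called higher and 0 lower, while 11.2% of 13268 genes tested were called higher and 6.42% lower. Over all tissue bins the same 3 were called higher and 0 lower, against 17.4% higher and 8.07% lower among 15396 genes. These bins include the lymph-node-like area, which is nearly absent from WT1101. Without it the *Tap1* ratio of KO1134 fell just under the 1.5-fold limit, so this call of *Tap1* was lost. In the cortex, *Tapbp* and *Nlrc5* were called higher and 0 genes lower, against 11.7% higher and 5.36% lower. In the medulla, *Psmb9* and *Tap1* were called higher and 0 lower, against 10.6% higher and 10.1% lower. Each gene is 10% of the list, so the counts lie within 1 or 2 genes of these shares. The median ratio to WT of the 10 genes in thymic T bins was 1.30 in KO1308 and 1.19 in KO1134, beside 1.06 and 0.925 over all genes tested. Taken relative to the median of all genes, whose log2 shift was 0.08 in KO1308 and -0.11 in KO1134, *Tap1* was 1.73-fold and 1.88-fold the WT level and *Psmb8* was 0.897-fold and 1.01-fold. The direction of *Psmb8* in KO1134 thus flips with this scaling, as does that of *Psmb5*, at 1.08-fold. On this scale *Psmb10* passed the 1.5-fold limit in both KO sections, so its lack of a call depends on the scaling. The shares of all genes called were not counted on this scale.

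Within each section, which needs no comparison between mice, most immunoproteasome and loading genes were higher in the medulla and most constitutive subunits were lower, with exceptions in both. *Nlrc5* was at 69.3 CPM in the medulla and 21.8 CPM in the cortex of KO1308, at 93.5 and 47.5 CPM in KO1134, and at 51.2 and 11.7 CPM in WT1101. This gives the widest contrast of the members in KO1308 and WT1101, 3.18-fold (2.58 to 3.94) and 4.37-fold (3.70 to 5.16), and 1.97-fold (1.76 to 2.21) in KO1134. *Tapbp* was higher in the medulla by 2.21-fold (2.05 to 2.38), 2.01-fold (1.87 to 2.16) and 2.31-fold (2.14 to 2.49) in KO1308, KO1134 and WT1101. *Tap1* followed at 2.24-fold (2.06 to 2.43), 1.88-fold (1.76 to 2.0) and 1.64-fold (1.53 to 1.76). These 3 genes thus lean to the medulla in each mouse, whatever the genotype.

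Among the subunits, *Psmb10* was 1.41-fold, 1.45-fold and 1.40-fold higher in the medulla, a near constant contrast. *Psmb9* varied more, at 1.44-fold, 1.69-fold and 1.21-fold. *Psmb8* differed in direction, at 1.15-fold (1.05 to 1.27) in KO1308 and 1.65-fold (1.54 to 1.78) in KO1134 but 0.931-fold (0.874 to 0.991) in WT1101. *Erap1* was 1.24-fold, 1.41-fold and 1.25-fold higher in the medulla.

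Of the constitutive subunits, *Psmb5* was below 1 in all 3 sections. It was at 0.761-fold (0.669 to 0.864), 0.758-fold (0.706 to 0.812) and 0.844-fold (0.789 to 0.903) of the cortical level in the medulla, and *Tap2* joined it at 0.904-fold, 0.942-fold and 0.825-fold. *Psmb6* was at 0.691-fold, 1.01-fold and 0.816-fold and *Psmb7* at 1.01-fold, 0.741-fold and 0.719-fold. *Psmb11*, the cortical epithelial subunit, was at 0.864-fold, 0.598-fold and 0.750-fold, lower in the medulla in all 3 sections. In all, 6 of the 10 genes were above 1 in 3 of 3 sections, against 29.5% of 11411 genes tested, and 2 of 10 were below 1 in 3 of 3 sections, also against 29.5%. The constitutive sum had a mean contrast of 0.802 ± 0.030 (SD, n = 3) and the immunoproteasome sum of 1.35 ± 0.26 (SD, n = 3), so the sums do not overlap between sections. Single subunits do, since *Psmb8* in WT1101 (0.931) lies below *Psmb6* in KO1134 and *Psmb7* in KO1308 (1.01 each).

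**Figure D4:**
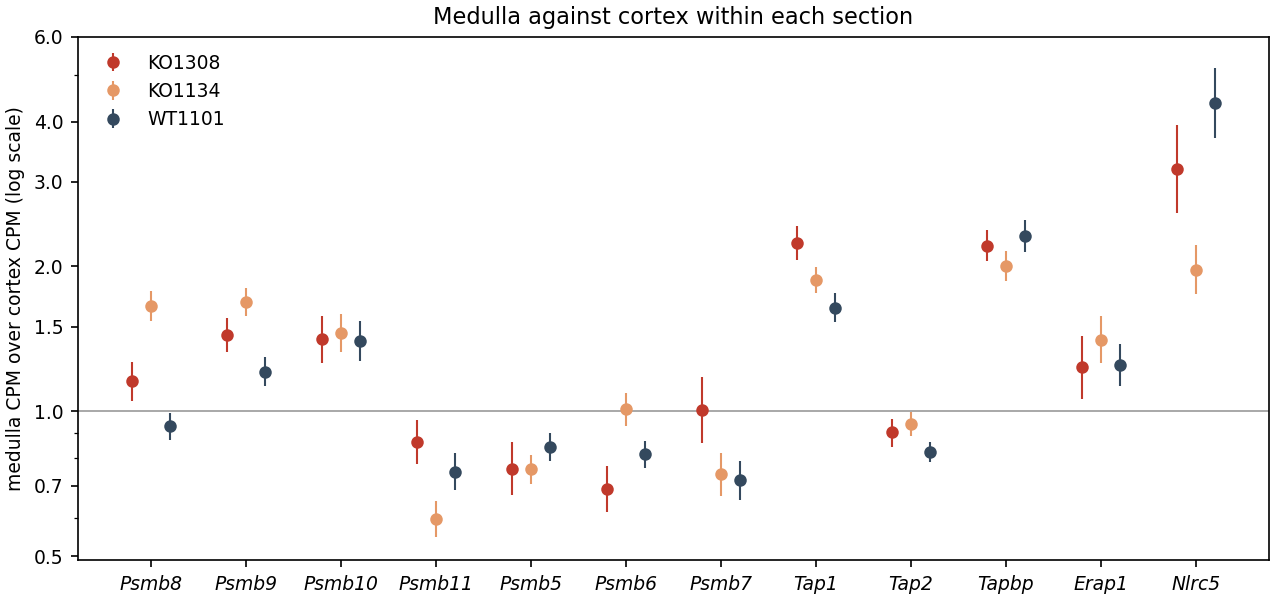
Ratio of the medulla level to the cortex level (log axis) of each member in each of the 3 sections, with *Psmb7* and *Psmb11* beside them, as points with exact 95% intervals (counting error only). *Nlrc5*, *Tapbp* and *Tap1* lie furthest above 1 in all sections, and *Psmb5*, *Tap2* and *Psmb11* lie below 1 in all sections.

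Thymic non-T bins are those in which each CD3 gene was below 1 on the scale used for T bins, a limit that a single UMI can meet in the deepest bins. The immunoproteasome sum in thymic T bins was 1.03-fold, 1.06-fold and 1.03-fold that in thymic non-T bins in KO1308, KO1134 and WT1101. *Psmb8* was higher in T bins in 3 of 3 sections, by 1.10-fold (1.01 to 1.20), 1.25-fold (1.14 to 1.37) and 1.15-fold (1.07 to 1.24). *Tapbp* was lower in T bins in KO1308 (0.841, 0.784 to 0.902) and WT1101 (0.682, 0.626 to 0.745), and 0.960 (0.879 to 1.05) in KO1134.

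Outside the thymus area the higher levels of the KO sections were not seen. Ratios of the 10 genes to WT ran from 0.626 (*Erap1*, KO1134) to 1.09 (*Psmb10*, KO1134). *Tap1* was at 267 CPM (248 to 286) in KO1308, 262 CPM (242 to 284) in KO1134 and 283 CPM (261 to 306) in WT1101. *Nlrc5* was at 87.3 CPM (76.7 to 99.0) in KO1308, 86.3 CPM (74.8 to 99.0) in KO1134 and 108 CPM (94.3 to 122) in WT1101. In the WT section these bins held the highest *Tapbp* and *Nlrc5*, 4.24-fold (3.87 to 4.63) and 9.19-fold (7.66 to 11) the cortical level. The bins are not of 1 tissue, since medulla markers summed to 1266, 1605 and 1481 CPM in them, so that part of the medulla lies here, while adipocyte markers summed to 7925 CPM in KO1308, 6158 CPM in KO1134 and 107 CPM in WT1101.

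A lymph-node-like area, in which 3 B cell genes outnumbered the thymus genes, held 505 bins in KO1308, 2144 bins in KO1134 and 1 bin in WT1101, so it has no WT value. *Psmb8* was at 264 CPM (234 to 297) and 222 CPM (211 to 234) there in KO1308 and KO1134, 1.55-fold and 1.68-fold the cortical level of the same section. *Psmb5* was at 106 CPM (87.4 to 128) and 115 CPM (107 to 124), 0.871-fold and 0.494-fold the cortical level. *Nlrc5* was 6.02-fold (4.72 to 7.68) and 1.99-fold (1.78 to 2.23) its cortical level. *Psmb9* was at 1.88-fold and 1.33-fold, and *Psmb6* at 0.849-fold and 0.862-fold. *Psmb10* was at 1.03-fold and 0.957-fold, and *Psmb7* at 1.13-fold (0.878 to 1.44) and 0.581-fold (0.519 to 0.650). The immunoproteasome sum was at 1.57-fold (1.45 to 1.70) and 1.36-fold (1.30 to 1.43), and the constitutive sum at 0.908-fold (0.809 to 1.02) and 0.625-fold (0.594 to 0.657). In KO1134 each immunoproteasome subunit thus lay above each constitutive one. In KO1308 *Psmb7* lay above *Psmb10*, with an interval that holds 1.

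Markers of other cells moved with the genotype in thymic T bins. The 5 B cell markers summed to 99.6 CPM in KO1308, 298 CPM in KO1134 and 46.7 CPM in WT1101, the 6 myeloid markers to 792, 1630 and 602 CPM, and the 7 dendritic markers to 112, 137 and 48.4 CPM. The medulla markers summed to 726, 679 and 211 CPM, and the 5 T cell markers to 2518, 1700 and 2949 CPM. The 3 plasma cell markers summed to 7077, 3170 and 1420 CPM, the 5 epithelial markers to 1060, 594 and 480 CPM, the 6 fibroblast markers to 291, 309 and 119 CPM, the 5 adipocyte markers to 519.6, 397 and 92.4 CPM, and the 5 cytotoxic markers to 215, 534 and 143 CPM. UMIs of every marker in these 10 lists were present in each section. Ribosomal protein genes took 10.02%, 15.9% and 9.70% of UMIs.

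The thymus bins were therefore also set side by side in bands of the summed share of B cell, myeloid and dendritic markers in the surrounding window, which does not hold the other lists constant. Below 0.1% there were 7101 bins in KO1308, 1621 in KO1134 and 18837 in WT1101. In this band *Tap1* was at 177 CPM in KO1308, 131 CPM in KO1134 and 119 CPM in WT1101, and *Tapbp* at 209, 90.9 and 81.3 CPM. KO1308 thus stood above WT at a like marker share, by 1.48-fold and 2.57-fold, while KO1134 was 1.10-fold and 1.12-fold the WT level. From 0.1% to 0.2% the ratios of *Tap1* were 1.90 in KO1308 and 1.09 in KO1134 and those of *Tapbp* 2.25 and 0.985. From 0.2% to 0.4% they were 1.498 and 1.28 for *Tap1* and 1.71 and 1.04 for *Tapbp*. The highest band held 23 bins in KO1134, 51 in WT1101 and 0 in KO1308 and was not compared.

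*Psmb9* had ratios of 1.43, 1.58 and 1.55 in the rising bands of KO1308 and of 0.936, 1.08 and 1.26 in those of KO1134. *Psmb8* in KO1134 was below WT in the lowest bands, at 0.617 and 0.739, and above it in the third, at 1.22. *Nlrc5* was above WT in each of these bands in both KO sections, by 1.79-fold, 1.25-fold and 1.10-fold in KO1308 and by 2.22-fold, 1.43-fold and 1.29-fold in KO1134. *Psmb5* held ratios of 0.619, 0.664 and 0.566 in KO1308 and of 1.24, 1.38 and 1.16 in KO1134. *Psmb10* was above WT in each of these bands, by 1.53-fold, 1.62-fold and 1.37-fold in KO1308 and 1.17-fold, 1.19-fold and 1.21-fold in KO1134. So in these bands *Nlrc5* alone of the 10 genes passed the 1.5-fold limit in both KO sections, and in the lowest band only.

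**Figure D5:**
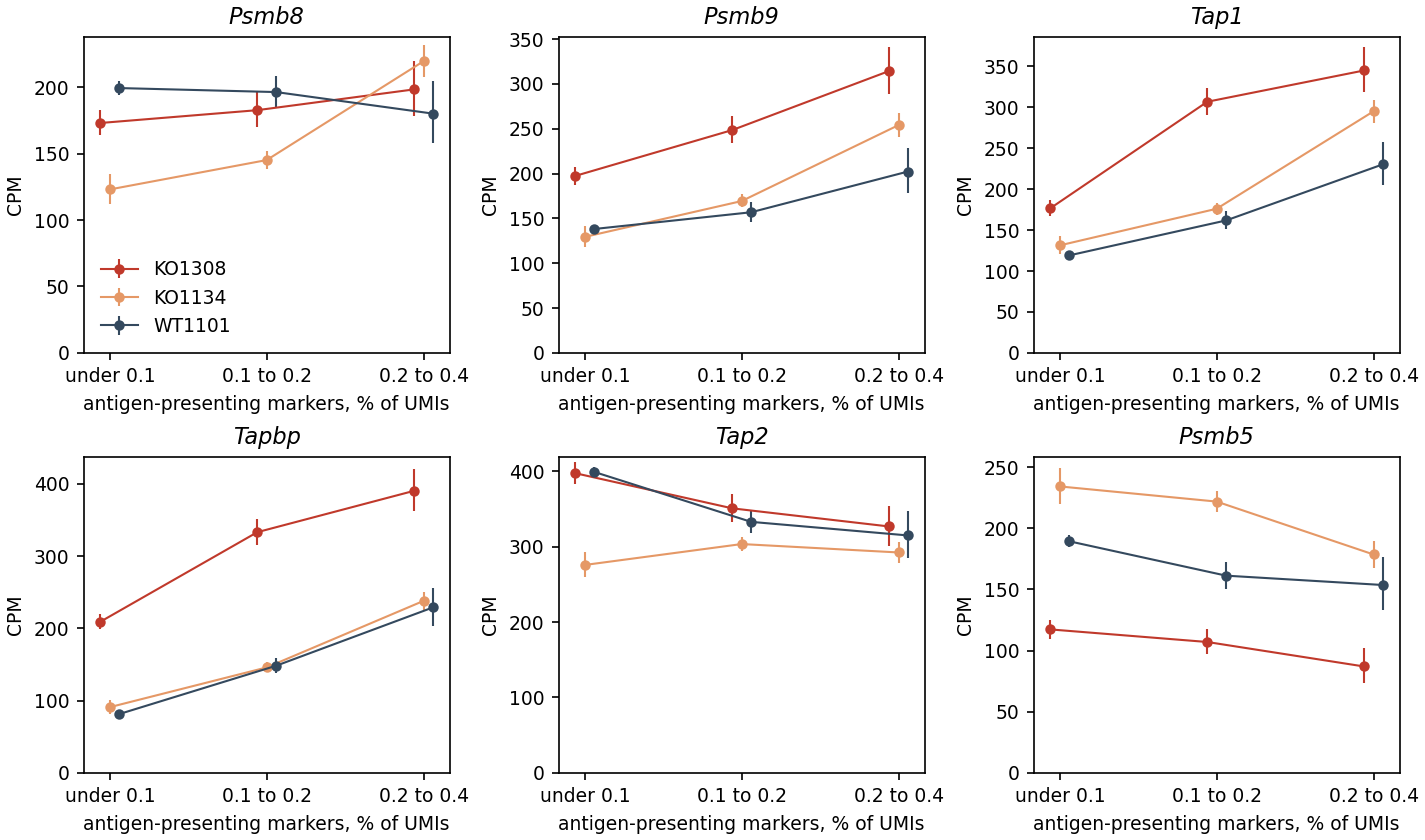
Levels in CPM of 6 members in thymus bins of the 3 sections, split by the summed share of B cell, myeloid and dendritic markers (in percent of UMIs) in the surrounding window, with exact 95% Poisson intervals (counting error only). *Tap1* and *Tapbp* of KO1308 stay above WT1101 in each band shown, and those of KO1134 are close to WT1101 in the lowest (131 against 119 CPM for *Tap1*).

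The other genes of the pathway were counted in thymic T bins, from lists that hold the members too. Over all genes tested there 11.2% were called higher and 6.42% lower, with median ratios of 1.06 in KO1308 and 0.925 in KO1134. The lists were chosen with earlier results of these data known, so their counts are descriptions. Of 11 other subunits of the 20S core 0 were called, 6 were below WT in both KO sections, and their median ratio was 0.764 in KO1308 and 0.864 in KO1134. *Psma2* was the lowest and *Psma5* the highest, at mean ratios of 0.702 and 1.03. Of 17 subunits of the 19S regulator, which unfolds proteins for the core, 0 were called, with medians of 0.988 and 0.939 and means from 0.751 (*Psmd2*) to 1.20 (*Psmd11*). Of 5 assembly factors 0 were called, with medians of 1.01 and 0.992, the lowest *Psmg3* (0.952) and the highest *Psmg2* (1.23).

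Of the 3 subunits of the PA28 activator, an interferon-induced cap of the core, *Psme2* was called higher at 1.60-fold in KO1308 and 2.07-fold in KO1134. *Psme1* was at 1.00-fold and 1.70-fold, and *Psme3*, which forms a separate nuclear activator, had a mean ratio of 0.792. Of 8 transport and loading genes 2 were called higher (*Tap1* and *Tapbp*) and 0 lower, with medians of 1.45 and 1.25. Of the class I genes 3 of 3 were called higher, with medians of 2.87 and 3.38. *H2-K1*, a class I heavy chain, was at 4.51-fold and 3.38-fold the WT level, and *B2m*, the light chain, at 2.59-fold and 3.05-fold.

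Of 5 transactivator genes, *Nlrc5* and *Ciita*, the class II transactivator, were called higher, *Ciita* at 2.49-fold and 3.26-fold, and the lowest was *Rfxap* with a mean of 0.732. Of 21 interferon pathway genes 20 were tested, 10 were called higher and 0 lower, with medians of 1.66 in KO1308 and 1.62 in KO1134. The highest was *Cxcl9*, an interferon-induced chemokine, at 10.5-fold and 12.0-fold, and the lowest *Igtp*, an interferon-induced GTPase, at 0.969-fold and 0.839-fold. *Psmb11* was at 1.25-fold and 1.00-fold. Every ratio in these lists shares the WT section, and the other-cell markers above moved with them. Their part in these ratios was not tested beyond the bands.

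Across non-overlapping tiles of 7 × 7 bins (331 in KO1308, 247 in KO1134 and 577 in WT1101), the genes most like the immunoproteasome sum by the lowest of 3 Spearman correlations were *Patl2*, *H2-Ab1*, *B2m*, *Tmsb4x* and *Cd74*, out of 7221 genes. For *B2m*, which ends in the same class I molecule, the correlation was 0.475 in KO1308, 0.729 in KO1134 and 0.353 in WT1101, and for *Cd74*, the class II invariant chain, 0.582, 0.789 and 0.336. The members followed each other most closely in KO1134, where the tiles were also the deepest. The median was 131983 UMIs per tile there, against 45822 in KO1308 and 62926 in WT1101. The immunoproteasome sum correlated with tile depth at -0.035 in KO1308, 0.278 in KO1134 and -0.083 in WT1101. The tiles were drawn over all tissue bins, so they include the lymph-node-like area and tissue outside the thymus area. The parts of depth and of mixed tissue in these correlations were not tested. The Spearman correlation between *Psmb8* and *Tap1* was 0.234 in KO1308, 0.643 in KO1134 and -0.102 in WT1101, and between *Tap1* and *Tapbp* 0.515, 0.557 and 0.428. *Psmb5* and *Tapbp* were inverse in all 3 sections, at -0.268, -0.237 and -0.235. Tiles of a section share a library and differ in depth, and these correlations are descriptions.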

How the data were processed

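BSTMatrix and STAR were run by the authors on the reads of the 3 sections. The deposited values are UMI counts of each gene at each spot, whole and not normalised, and GRCm38 is the build in the submitters' processing notes. The authors' removal of folded areas was not repeated, and their annotation of clusters was not used here.

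Spots were summed in bins of 27 µm. Bins needed at least 300 genes and at most 30% mitochondrial UMIs, and connected groups of at least 200 bins were taken as tissue. The sections held 21089885 (KO1308), 31237062 (KO1134) and 41581477 (WT1101) UMIs. CPM, ratios and exact 95% intervals were computed from sums over bins, and no test between genotypes was made, since the labels give 1 WT mouse. Genes were placed with GENCODE, and sequences are from RefSeq. The text names the 10 members, *Psmb7*, *Psmb11*, *Psme1*, *Psme2*, *Trp53*, the ends of each gene list and the 5 genes most alike over tiles. Genes with shared exons are named beside them. The members and lists were chosen with earlier results of these data known. Alternatives covered bin width, gene minimum, mitochondrial limit, CD3 rule, thymus genes, window, marker lead and lists, denominator, scaling, thinning to 500 UMIs, lymph-node-like bins, bins with markers of other cells, UMI and fold limits, and each section left out. The computations were tested on simulated data. The versions were Python 3.11.15, matplotlib 3.10.9, pandas 2.3.3, scipy 1.17.1 and numpy 2.4.6.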

Additional observations from a re-analysis of the deposited data

Results flagged for a closer look

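*Psmb8* was higher in the medulla than in the cortex in both KO sections, at 1.15-fold (1.154) in KO1308 and 1.65-fold (1.655) in KO1134, and lower in the WT section, at 0.931-fold (0.9309). The KO and WT sections thus moved in opposite directions under the same contrast, which drew attention to it. The difference was not tested, as there is 1 WT section.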

How the results depend on the processing

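The spread between mice of a genotype is known for KO only and from 2 mice of different ages, mean depth runs from 1090 to 2591 UMIs per bin, and the intervals leave out all but counting error. Of 390 alternatives for single members, 381 kept the value on the same side of 1 and 9 did not. *Tap1* in thymic T bins with no UMI of markers of other cells turned to a mean ratio of 0.878, and *Psmb9* per *Psmb6* relative to WT to 0.735. In the same bins the constitutive sum was at 1.52 (0.759 in all thymic T bins) and the immunoproteasome sum per constitutive sum at 1.10 of WT (1.64). With all 3 CD3 genes required, the immunoproteasome sum was at 1.03 (1.23), the transport and loading sum at 1.51 (1.24) and the immunoproteasome sum per constitutive sum at 1.24. These alternatives left 93 and 161 bins in KO1308 and 14 and 23 in KO1134. In KO1134 the bins held 8 and 11 immunoproteasome UMIs and 22 and 20 constitutive UMIs, so these values are uncertain.

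Without ribosomal protein and mitochondrial UMIs, the mean of the KO medians was 1.00 for the 19S regulator, 1.04 for the assembly factors and 1.71 for the interferon list. The count of genes called higher in thymic T bins was 1489, and 913 with at least 200 UMIs; a 2-fold limit gave 648 higher and 215 lower (852). With 1 KO section left out, from 2357 (KO1134 alone) to 2970 (KO1308 alone) genes were higher and from 1545 to 2863 lower. Leaving KO1308 out moved *Psmb8* per *Psmb5* to 0.938 of WT. Of the results that answer a comparison, 124 alternatives kept the value within the spread and 15 did not, all given here. For ratios the spread is the SD between sections, and leaving a section out cannot move the mean beyond it. Those alternatives were thus within the spread by arithmetic and say nothing of stability. Each section left out of the medulla contrast and areas drawn over all tissue were chosen after seeing the data. So was each KO section left out of the subunit pairs and of the gene counts. No paired analysis was possible because the groups share only 1 replicate number, given in accession order, and no result comes from a test.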
